A study of Drosophila melanogaster with 24 samples.

Results

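The histamine cycle of the fly eye is served by 7 genes that were examined here: t (tan), e (ebony), Hdc, ort, HisCl1, CarT and BalaT. They were taken by their FlyBase symbols from a table of 17559 genes, and all 7 members were found. The member t was selected on its RPKM values in mock flies, as 1 of the genes whose level was most strongly lowered at 3X relative to 1X, and the other members were added for their roles in the cycle. The difference of t between these mock groups is therefore a description and not a test.

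RNA was measured in single heads of virgin male Drosophila melanogaster after courtship suppression training, in which a male is kept with an unreceptive mated female. The 4 groups held 6 flies each: 3X trained males had 3 sessions of 2 h with gaps of 30 min, 3X mock males were handled in the same way with no female, 1X trained males had 1 such session, and 1X mock males were handled for 1 session with no female. Heads were taken 1 h after the last session, and all flies were kept at 25 °C with 12 h of light and 12 h of dark. The study's methods say that males were housed singly from shortly after eclosion and trained on the fifth day; the strain and the clock hour of collection were not given for these flies in the sources used here. No label names a transgene or a mutant allele, and the replicate numbers name single flies. The 3X and 1X groups differ in the number of sessions and in the length of handling together, and they may also have been collected at different times of day, which cannot be told apart from the schedule in any 3X minus 1X value.

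Photoreceptors of the fly release histamine as their transmitter. Hdc, histidine decarboxylase, makes it, and the chloride channels ort and HisCl1 open when it binds. Glia around the terminals take histamine up, and the enzyme made from e joins it to β-alanine to give carcinine. CarT carries carcinine back into photoreceptors, where the enzyme made from t splits it into histamine and β-alanine again, and BalaT carries β-alanine. The enzymes of e and t also act on dopamine and on β-alanyl-dopamine in the cuticle, where their mutants were first known for dark and for light body colour. A head holds retina, brain, glia, fat, muscle and cuticle, so fewer cells of a type and less RNA per cell cannot be told apart in these values.

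Levels are given as RPKM, reads scaled to the length of the gene and the size of the library, which allows genes to be compared per length. The libraries held 18945855 to 41440179 reads, with a median of 34597894, as recovered from the RPKM values. All 7 members had at least 1 RPKM in each of the 24 flies and passed the filter on low values, and the smallest number of reads behind any member's value was 316, for ort. The label of fly head was met by the markers: all 20 photoreceptor genes listed were found, and the major rhodopsin gene ninaE had 12400 to 14470 RPKM in 3X trained, 12680 to 14690 RPKM in 3X mock, 11360 to 13500 RPKM in 1X trained and 11740 to 14280 RPKM in 1X mock heads. Of 8 genes listed for eye pigment cells, cn was under 1 RPKM in every fly. One 3X mock fly, replicate 6, stood apart with a summed testis list of 131 RPKM, against at most 31.4 RPKM in the other flies. It also had 13.85% of genes at 0 RPKM, against 18.45% to 22.19% in the other flies. Without it 73 of all genes passed the test in 3X trained against 3X mock flies, in place of 239. The members called there stayed at 0. A 1X trained fly, replicate 1, stood apart with the lowest summed fat body list, 624 RPKM against 1887 to 10170 RPKM in the other flies, and the lowest summed muscle list, 199 RPKM. Without 1X trained replicate 1 the members called stayed at 3 in 3X trained against 1X trained flies, 0 in 1X trained against 1X mock flies and 0 in the difference between the training effects, and the adjusted p of HisCl1 was 0.0458 in limma.

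Averaged over the 24 flies, e had the highest level, at 46.5 RPKM, followed by t at 30.6, BalaT at 22.0, CarT at 18.3, Hdc at 13.4, HisCl1 at 13.4 and ort at 8.88 RPKM. CarT was above Hdc and HisCl1 was above ort in 24 of 24 flies. Hdc and HisCl1 had like means, and their order went with the schedule: Hdc was above HisCl1 in 0 of 6 flies of each 3X group, in 5 of 6 1X trained flies and in 4 of 6 1X mock flies. The place of t also went with the schedule, as t was above BalaT in all 6 flies of each 1X group and in 2 of 6 flies of each 3X group. In the mock groups this order carries the choice of t, so it is given as a description.

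**Figure D1:**
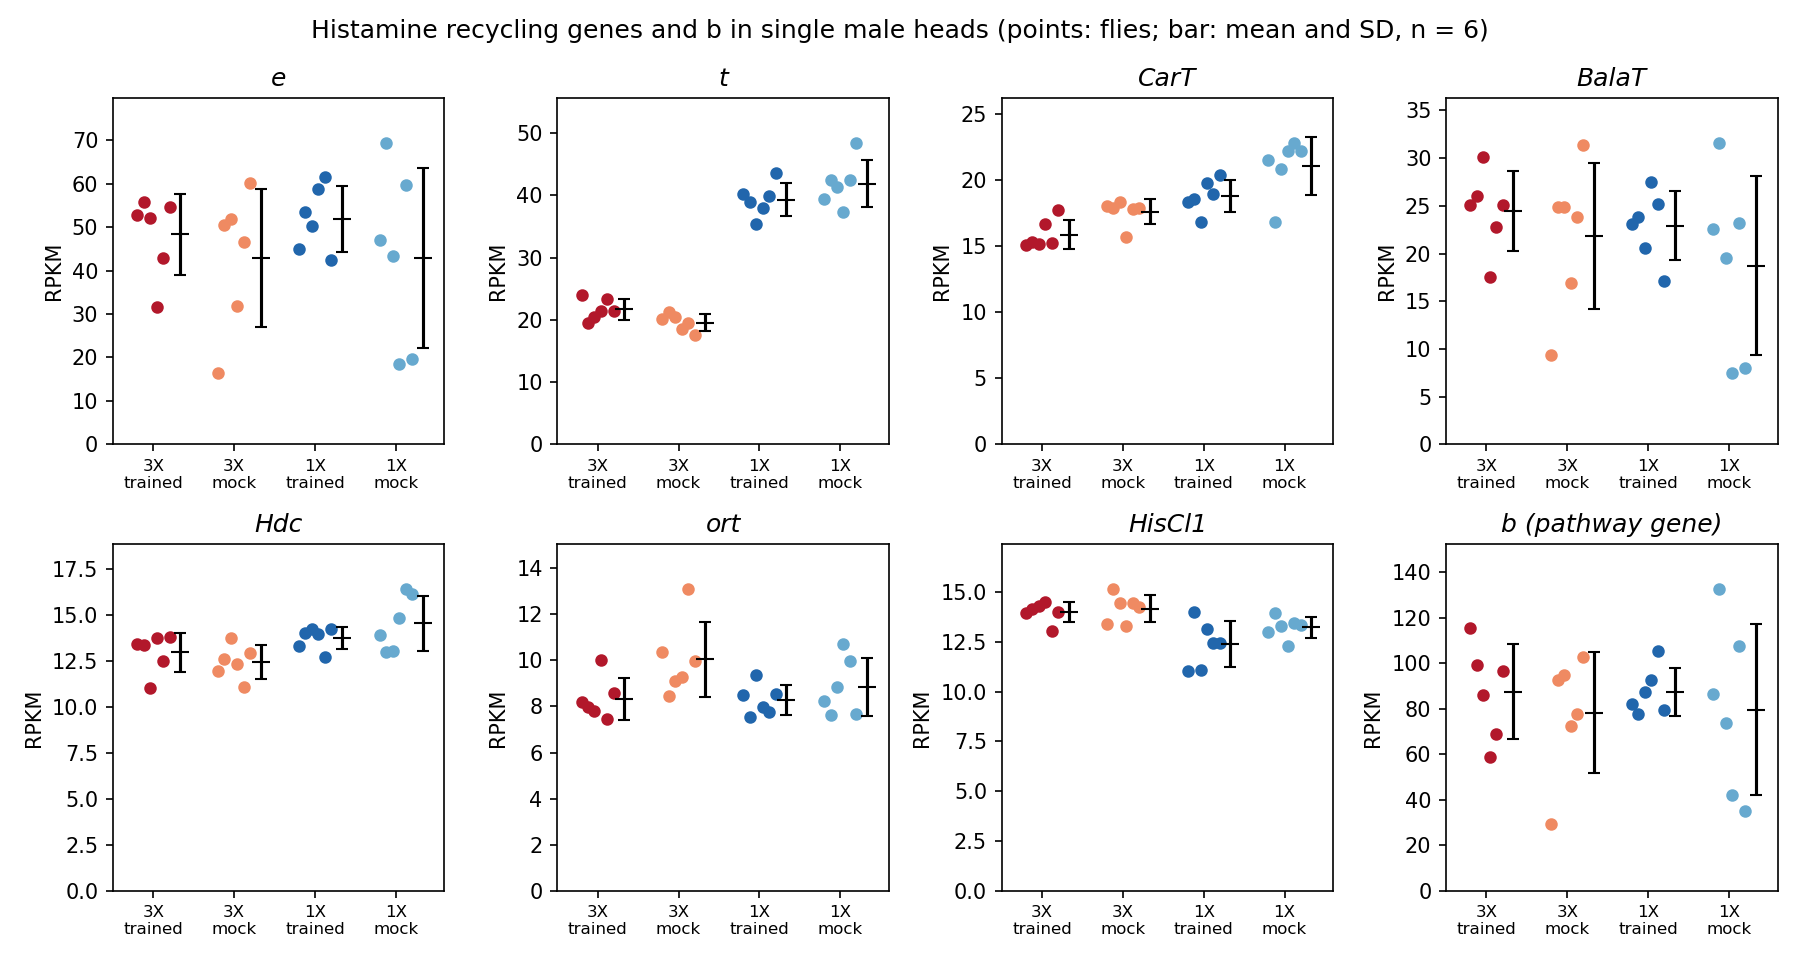
RPKM of the 7 histamine recycling genes and of b in each of the 4 groups, with 1 point for each fly and a bar for the mean and SD (n = 6). The points of t form 2 separate levels by schedule, at 17.5 to 24.1 RPKM in 3X flies and at 35.4 to 48.4 RPKM in 1X flies, while e, BalaT and b each have 3 mock flies far below the rest.

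The schedules were first compared in trained males, which were not used when t was picked. The gene t was lower after 3 sessions of training than after 1, CarT was lower by a smaller amount, and HisCl1 was slightly higher. Together 3 of the 7 members passed the test, 1 higher and 2 lower, in a comparison in which 11.1% of 10547 genes passed it. The members were chosen with earlier results of these data known, which limits what this count can show. The median log2 change of the members was -0.08, against 0.01 over all genes tested. Changes are on the log2(RPKM + 1) scale and come from limma with Benjamini-Hochberg adjustment over all genes tested.

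The hydrolase gene t lies on chromosome X at 9217655 to 9223257 on the minus strand (dm6), and no other annotated gene overlaps it. Its lowest, median and highest levels were 19.4, 21.4 and 24.1 RPKM in 3X trained flies, against 35.4, 39.4 and 43.6 RPKM in 1X trained flies. No 3X trained fly reached the level of any 1X trained fly. The mean was 21.7 ± 1.74 RPKM in 3X trained and 39.3 ± 2.71 RPKM in 1X trained flies (n = 6 each, SD), a ratio of 0.551. The log2 change was -0.83 (SE 0.06, 95% interval -0.96 to -0.70, limma adjusted p = 2.4e-09). Leaving out any 1 fly of the groups compared gave changes of -0.86 to -0.80.

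The mock groups show the values on which t was picked. The levels of t were 17.5, 19.8 and 21.3 RPKM (lowest, median and highest) in 3X mock flies, against 37.3, 41.9 and 48.4 RPKM in 1X mock flies, and the groups did not overlap. The 3X mock mean was 19.5 ± 1.35 RPKM and the 1X mock mean 41.9 ± 3.75 RPKM (n = 6 each, SD), with a log2 difference of -1.06. Between these mock groups 4.34% of all genes tested passed the test, and 2 of the 7 members were among them, t and CarT. Nothing is read from that count, because the choice of t used this comparison.

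Within a schedule the means of t in trained and mock flies lay closer together than the means of the 2 schedules. After 3 sessions t averaged 21.7 RPKM in trained and 19.5 RPKM in mock flies, and the log2 difference was 0.14 (95% interval 0.02 to 0.27). After 1 session t averaged 39.3 RPKM in trained and 41.9 RPKM in mock flies, and the log2 difference was -0.09 (95% interval -0.21 to 0.04). These 2 differences share mock flies with the comparison that picked t and were not tested. The trained and mock ranges of t overlapped at both schedules.

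The clock genes moved with the schedule in the same flies. Transcripts of tim, whose product represses the clock together with that of per, averaged 94.3 ± 14.1 RPKM in 3X trained, 110 ± 9.85 RPKM in 3X mock, 10.2 ± 1.77 RPKM in 1X trained and 14.6 ± 4.47 RPKM in 1X mock flies (n = 6 each, SD). The transcripts of per averaged 16.5 ± 1.28 RPKM in 3X trained, 18.4 ± 1.77 RPKM in 3X mock, 4.43 ± 0.536 RPKM in 1X trained and 5.74 ± 1.43 RPKM in 1X mock flies (n = 6 each, SD). The log2 change of 3X trained over 1X trained flies was 3.10 for tim and 1.69 for per (limma adjusted p = 8.74e-13 and 6.95e-11). Of the 9 clock genes listed, 7 passed the test in that comparison, 5 higher and 2 lower, where 11.1% of all genes tested passed. The summed list was 365 to 428 RPKM in 3X trained and 398 to 434 RPKM in 3X mock flies. It was 256 to 272 RPKM in 1X trained and 265 to 294 RPKM in 1X mock flies. The part of the clock genes in the difference of t was not tested.

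The summed level of the photoreceptor list, of which ninaE makes a large part, had a median of 33420 RPKM in 3X trained and 34210 RPKM in 3X mock flies. It was 31350 RPKM in 1X trained and 32850 RPKM in 1X mock flies. The summed list of 20 photoreceptor genes ranged over 32350 to 34720 RPKM in 3X trained, 32550 to 35440 RPKM in 3X mock, 29170 to 34200 RPKM in 1X trained and 29520 to 35020 RPKM in 1X mock flies. In 3X trained against 1X trained flies 6 of the 20 passed the test, 4 higher and 2 lower, where 11.1% of all genes tested passed. The median log2 change of the 20 was 0.07. The 4 higher were trp, a channel of the light response, at 0.44, rdgC, a rhodopsin phosphatase, at 0.44, the rhodopsin Rh6 at 0.42, and chp, a photoreceptor membrane protein, at 0.27. The 2 lower were inaD, a scaffold of the light response, at -0.35, and inaC, an eye protein kinase, at -0.35. The part of photoreceptor RNA in the difference of t was not tested.

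**Figure D2:**
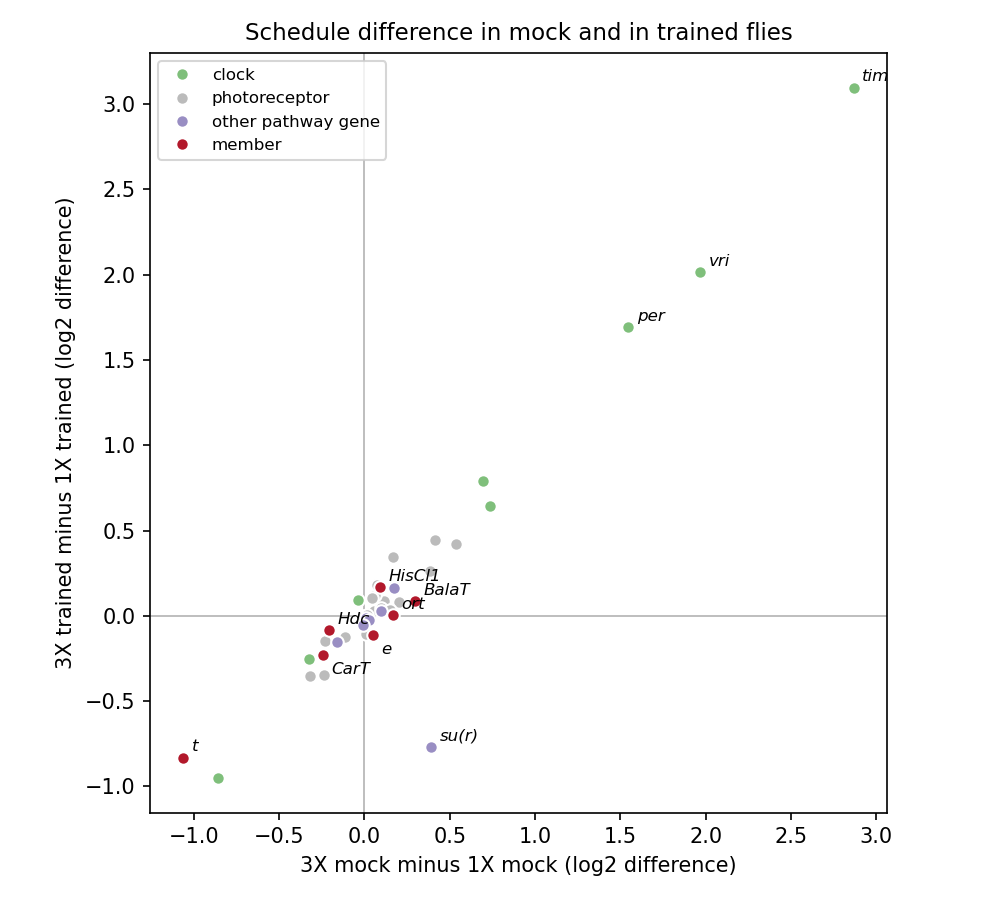
Log2 difference of 3X over 1X flies in trained males (vertical axis) against the same difference in mock males (horizontal axis), with 1 point for each histamine recycling gene, other pathway gene, photoreceptor gene and clock gene. The gene t lies at -0.83 and -1.06, far below the other members, which lie between -0.23 and 0.17 on the vertical axis, while tim lies at 3.10 and 2.87.

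CarT, the carcinine transporter, lies on chromosome 2L at 20727151 to 20730282 on the minus strand. Its lowest, median and highest levels were 15.1, 15.3 and 17.7 RPKM in 3X trained flies, against 16.8, 18.8 and 20.4 RPKM in 1X trained flies. In 3X trained flies 5 of 6 values were below the whole range in 1X trained flies. The means were 15.9 ± 1.10 RPKM in 3X trained and 18.8 ± 1.22 RPKM in 1X trained flies (n = 6 each, SD), and the log2 change was -0.23 (SE 0.06, 95% interval -0.36 to -0.10, limma adjusted p = 0.0164). The adjusted p lay between 0.008 and 0.0411 whichever fly was left out. In mock flies CarT averaged 17.6 ± 0.967 RPKM at 3X and 21.1 ± 2.18 RPKM at 1X (n = 6 each, SD), with a log2 difference of -0.24 that is given as a description.

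HisCl1, a histamine-gated chloride channel known from glia and photoreceptors of the eye, lies on chromosome 3R at 11787176 to 11789393 on the plus strand and overlaps Sbf on the other strand. The libraries do not keep the strand, so reads of HisCl1 and Sbf in the shared stretch cannot be told apart. Its lowest, median and highest levels were 13.02, 14.1 and 14.5 RPKM in 3X trained flies, against 11.03, 12.5 and 14.0 RPKM in 1X trained flies, and the ranges overlapped. The means were 14.0 ± 0.512 RPKM in 3X trained and 12.4 ± 1.16 RPKM in 1X trained flies (n = 6 each, SD), and the log2 change was 0.17 (SE 0.05, 95% interval 0.07 to 0.27, limma adjusted p = 0.0241). HisCl1 no longer passed the test without 1X trained replicate 3 (limma adjusted p = 0.0669), without 3X trained replicate 4 (0.0526) or in a fit of only these 12 flies (0.103), and 2 of the 7 members then passed. In mock flies HisCl1 averaged 14.2 ± 0.697 RPKM at 3X and 13.2 ± 0.546 RPKM at 1X (n = 6 each, SD), which is a log2 difference of 0.09.

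The other 4 members did not pass the test between 3X trained and 1X trained flies. Hdc, which starts the cycle, lies on chromosome 2R at 10237988 to 10246077 and overlaps lncRNA:CR45265 and CG12209 on the other strand, whose reads cannot be told apart from its own in the shared stretches. It had 11.1, 13.4 and 13.8 RPKM (lowest, median and highest) in 3X trained flies, against 12.7, 14.0 and 14.3 RPKM in 1X trained flies. The groups overlapped, and the log2 change of Hdc was -0.08 (95% interval -0.21 to 0.04, limma adjusted p = 0.43). In mock flies Hdc averaged 12.5 ± 0.915 RPKM at 3X and 14.6 ± 1.49 RPKM at 1X (n = 6 each, SD), with 5 of 6 values at 3X below the whole range at 1X and a log2 difference of -0.21.

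The receptor ort, through which lamina and medulla neurons receive histamine, lies on chromosome 3R at 19659748 to 19663672. It had 7.46, 8.08 and 10.02 RPKM (lowest, median and highest) in 3X trained flies, against 7.56, 8.25 and 9.38 RPKM in 1X trained flies, so that the ranges nearly coincided. Its log2 change was 0.00 (95% interval -0.18 to 0.19, limma adjusted p = 0.98). The interval of ort leaves room for a change of up to 0.19 on the log2 scale in the upward direction.

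For e and BalaT the same comparison had little precision in the model of all flies, whose variance also takes in the widely spread mock flies. The log2 change of e was -0.11 (95% interval -0.73 to 0.50, limma adjusted p = 0.854), and that of BalaT was 0.09 (95% interval -0.51 to 0.68, limma adjusted p = 0.884). The intervals of both genes reach at least 0.50 in either direction, whereas that of CarT spans -0.36 to -0.10. The SE was 0.298 for e and 0.287 for BalaT in that model. In a fit of only the 12 flies of the 2 trained groups it was 0.139 for e and 0.127 for BalaT. Neither gene passed the test in that smaller fit (limma adjusted p = 0.691 for e and 0.745 for BalaT).

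**Figure D3:**
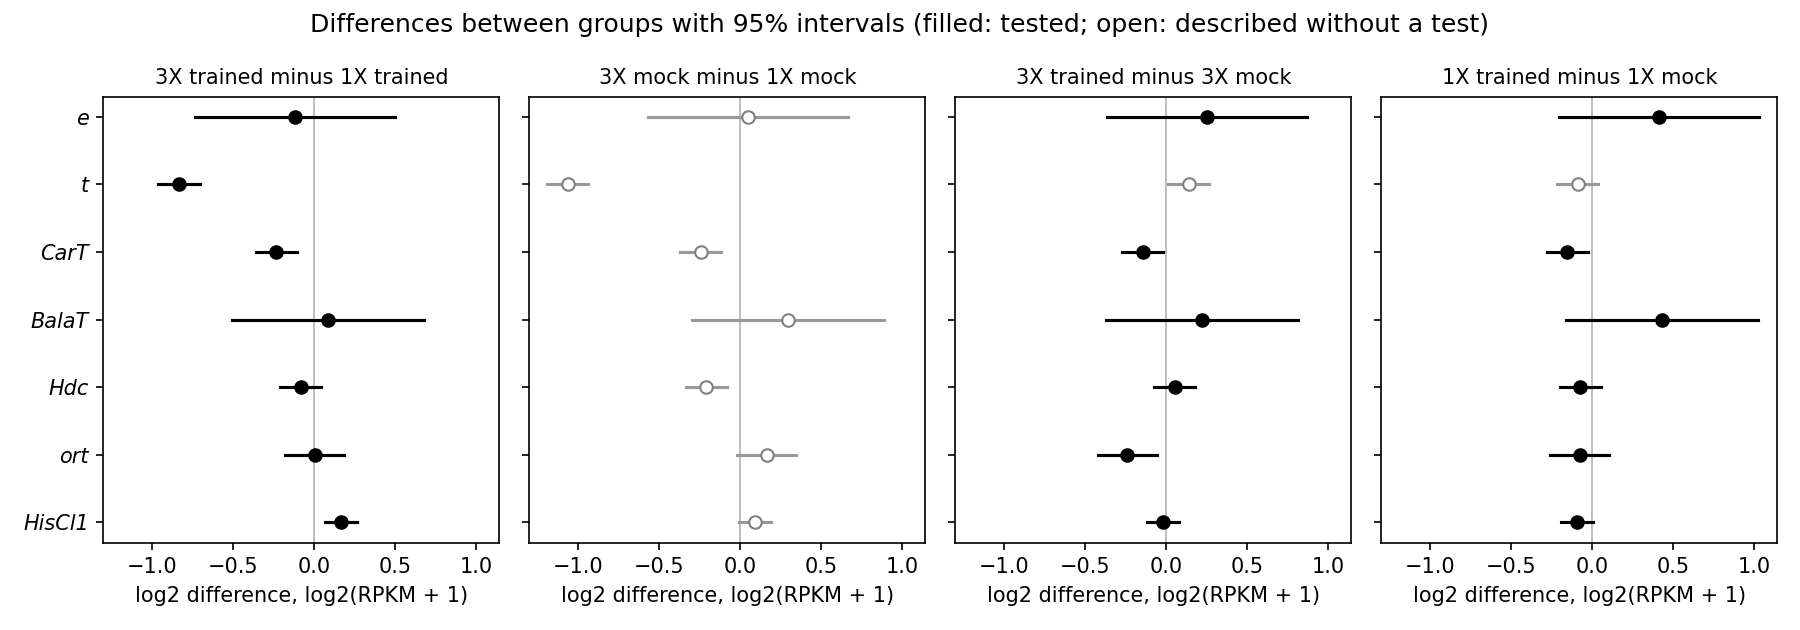
Log2 differences between groups on the log2(RPKM + 1) scale for the 7 members, as points with 95% intervals, in 4 panels for 3X trained minus 1X trained, 3X mock minus 1X mock, 3X trained minus 3X mock, and 1X trained minus 1X mock. Filled points were tested and open points are descriptions; t stands apart from 0 in both schedule panels, and the intervals of e and BalaT are several times as wide as those of the other members.

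Trained males had been with an unreceptive female and mock males with none, so these comparisons cover any response to the female. After 3 sessions 0 of the 6 members tested passed the test, where 2.27% of all genes tested did, and 2 of the 6, ort and CarT, had an unadjusted p below 0.05 in limma. After 1 session 0 of the 6 passed, where 4.94% of all genes tested did, and 1, CarT, had an unadjusted p below 0.05. The voom test on recovered reads also called 0 of the 6 at each schedule. The share over all genes was not steady: with 1 fly left out the genes called numbered 26 (without 3X trained replicate 3) to 612 (without 3X trained replicate 6) in place of 239 after 3 sessions, and 302 (without 1X mock replicate 5) to 503 in place of 521 after 1 session.

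After 3 sessions ort had 7.46, 8.08 and 10.02 RPKM (lowest, median and highest) in trained flies, against 8.46, 9.64 and 13.1 RPKM in mock flies. Of the 6 trained flies, 4 were below every mock fly. The means of ort were 8.34 ± 0.909 RPKM in 3X trained and 10.1 ± 1.63 RPKM in 3X mock flies (n = 6 each, SD), and the log2 difference was -0.24 (95% interval -0.42 to -0.05, limma adjusted p = 0.127). The highest value belonged to 3X mock replicate 5, and without it the difference was -0.16. After 1 session ort averaged 8.29 ± 0.661 RPKM in trained and 8.84 ± 1.26 RPKM in mock flies (n = 6 each, SD), with a log2 difference of -0.08 (95% interval -0.26 to 0.11, limma adjusted p = 0.686).

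CarT had lower means in trained than in mock flies at both schedules, without passing the test at either. After 3 sessions the log2 difference was -0.14 (95% interval -0.27 to -0.02, limma adjusted p = 0.182). After 1 session it was -0.15 (95% interval -0.28 to -0.02, limma adjusted p = 0.154). The 1X mock flies held 1 low value, 16.8 RPKM in replicate 2, against 20.8 to 22.8 RPKM in the other 1X mock flies. Without that fly the 1X difference was -0.21 and passed the test (limma adjusted p = 0.0218). The difference between the 3X and the 1X training effect on CarT was 0.01 (95% interval -0.17 to 0.19, limma adjusted p = 0.982).

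Hdc and HisCl1 had narrow intervals that included 0 between trained and mock flies, though that of HisCl1 after 1 session lay mostly below 0. The log2 difference of Hdc was 0.05 after 3 sessions (95% interval -0.07 to 0.18, limma adjusted p = 0.65) and -0.07 after 1 session (95% interval -0.20 to 0.05, limma adjusted p = 0.556). That of HisCl1 was -0.02 after 3 sessions (95% interval -0.12 to 0.08, limma adjusted p = 0.874) and -0.09 after 1 session (95% interval -0.19 to 0.01, limma adjusted p = 0.273). In the test of the difference between the 3X and 1X training effects, 0 of 6 members passed in limma or with voom, 0 had an unadjusted p below 0.05, and 0.171% of all genes tested passed, or 18 genes, a count that ran from 3 (without 1X trained replicate 2) to 107 (without 1X trained replicate 1).

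The glial enzyme gene e varied more between like-treated flies than most genes, and most widely in mock flies. It lies on chromosome 3R at 21229839 to 21237177 on the minus strand, with no overlapping gene. Its levels were 31.6, 52.5 and 55.7 RPKM (lowest, median and highest) in 3X trained flies, 16.4, 48.5 and 60.1 RPKM in 3X mock flies, 42.4, 51.9 and 61.4 RPKM in 1X trained flies, and 18.5, 45.2 and 69.3 RPKM in 1X mock flies. The lowest values were all in mock flies: 16.4 RPKM in 3X mock replicate 1, 18.5 RPKM in 1X mock replicate 4 and 19.6 RPKM in 1X mock replicate 6. The next lowest was 31.6 RPKM, in 3X trained replicate 4.

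BalaT, named Balat in current annotation, was lowest in the same 3 flies as e. Its levels were 17.5, 25.1 and 30.2 RPKM (lowest, median and highest) in 3X trained flies, 9.39, 24.4 and 31.3 RPKM in 3X mock flies, 17.2, 23.5 and 27.5 RPKM in 1X trained flies, and 7.44, 21.1 and 31.6 RPKM in 1X mock flies. It had 9.39 RPKM in 3X mock replicate 1, 7.44 RPKM in 1X mock replicate 4 and 7.97 RPKM in 1X mock replicate 6. BalaT lies on chromosome 2R at 12872787 to 12875012 on the minus strand, wholly inside the antisense gene asRNA:CR43469 on the plus strand. The reads assigned to the 2 genes were the same in 20 of 24 flies and differed by at most 1 read in the others, so BalaT and its antisense gene cannot be told apart, and the values may belong to either.

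Neither gene passed the test between trained and mock flies. After 3 sessions e averaged 48.3 ± 9.35 RPKM in trained and 42.9 ± 15.9 RPKM in mock flies (n = 6 each, SD), and the log2 difference was 0.25 (95% interval -0.36 to 0.87, limma adjusted p = 0.669). After 1 session e averaged 51.9 ± 7.51 RPKM in trained and 42.9 ± 20.7 RPKM in mock flies (n = 6 each, SD), and the log2 difference was 0.42 (95% interval -0.20 to 1.03, limma adjusted p = 0.457). BalaT differed by 0.22 after 3 sessions (95% interval -0.37 to 0.82, limma adjusted p = 0.702) and by 0.43 after 1 session (95% interval -0.16 to 1.03, limma adjusted p = 0.415). Single flies moved these differences. Without 3X mock replicate 1 the 3X difference was 0.0077 for e and 0.0123 for BalaT, and the 1X difference ran from 0.22 (without 1X mock replicate 4) to 0.59 (without 1X mock replicate 2) for e and from 0.22 to 0.61 for BalaT without the same flies.

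Within groups the SD of e was 0.55 on the log2 scale and that of BalaT was 0.53, where the median over all genes tested was 0.12. For e 97.4% of all genes tested had a smaller SD, and for BalaT 97.1% did. On the log2 scale the SD within groups was 0.11 for t, Hdc and CarT, 0.16 for ort and 0.08 for HisCl1. Only 16.0% of genes had a smaller SD than HisCl1.

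The gene b, whose enzyme makes β-alanine from aspartate, is no member of the cycle but supplies it, and it was low in the same flies as e. It had 29.5 RPKM in 3X mock replicate 1, 42.0 RPKM in 1X mock replicate 4 and 35.0 RPKM in 1X mock replicate 6, and these were its 3 lowest values of 24. Its means were 87.6 ± 20.9 RPKM in 3X trained, 78.3 ± 26.5 RPKM in 3X mock, 87.4 ± 10.5 RPKM in 1X trained and 79.5 ± 37.6 RPKM in 1X mock flies (n = 6 each, SD). It passed the test in none of the comparisons, with limma adjusted p of 0.969 for 3X trained against 1X trained, 0.703 for 3X trained against 3X mock and 0.644 for 1X trained against 1X mock flies. Each of the 24 flies had 1.45 to 2.27 times as much b as e.

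As a description over the 24 flies, which share their libraries between genes, Pearson's r of log2(RPKM + 1) was 0.955 between e and BalaT, 0.963 between e and b, and 0.91 between BalaT and b. With the group means removed the values were 0.976, 0.964 and 0.925. The correlation of e with t was 0.00 over all flies and -0.13 with group means removed, although the enzymes of both act on the same pair of molecules in opposite directions. The correlations of t with CarT (0.684) and with Hdc (0.618) fell to 0.172 and 0.183 once group means were removed, so they rested mostly on the 4 group means. Among these are the mock means on which t was picked. The correlation of Hdc with CarT was 0.638 over all flies and 0.492 with group means removed.

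**Figure D4:**
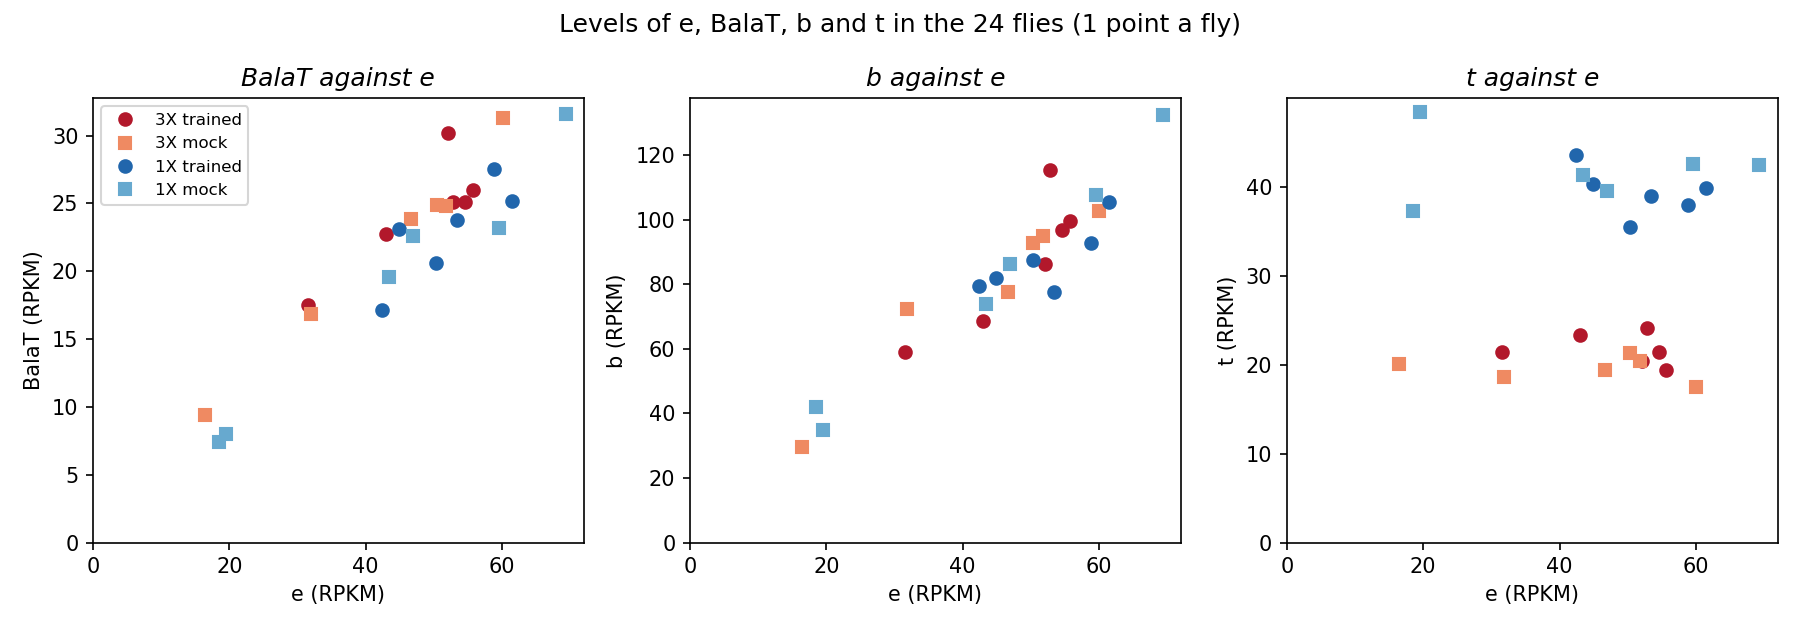
RPKM of BalaT, b and t (vertical axes, 3 panels) against RPKM of e (horizontal axes), with 1 point for each of 24 flies, coloured by group. BalaT and b are lowest in the 3 mock flies with 16.4 to 19.6 RPKM of e and higher where e is higher, whereas t lies in 2 bands by schedule at any level of e.

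**Figure D5:**
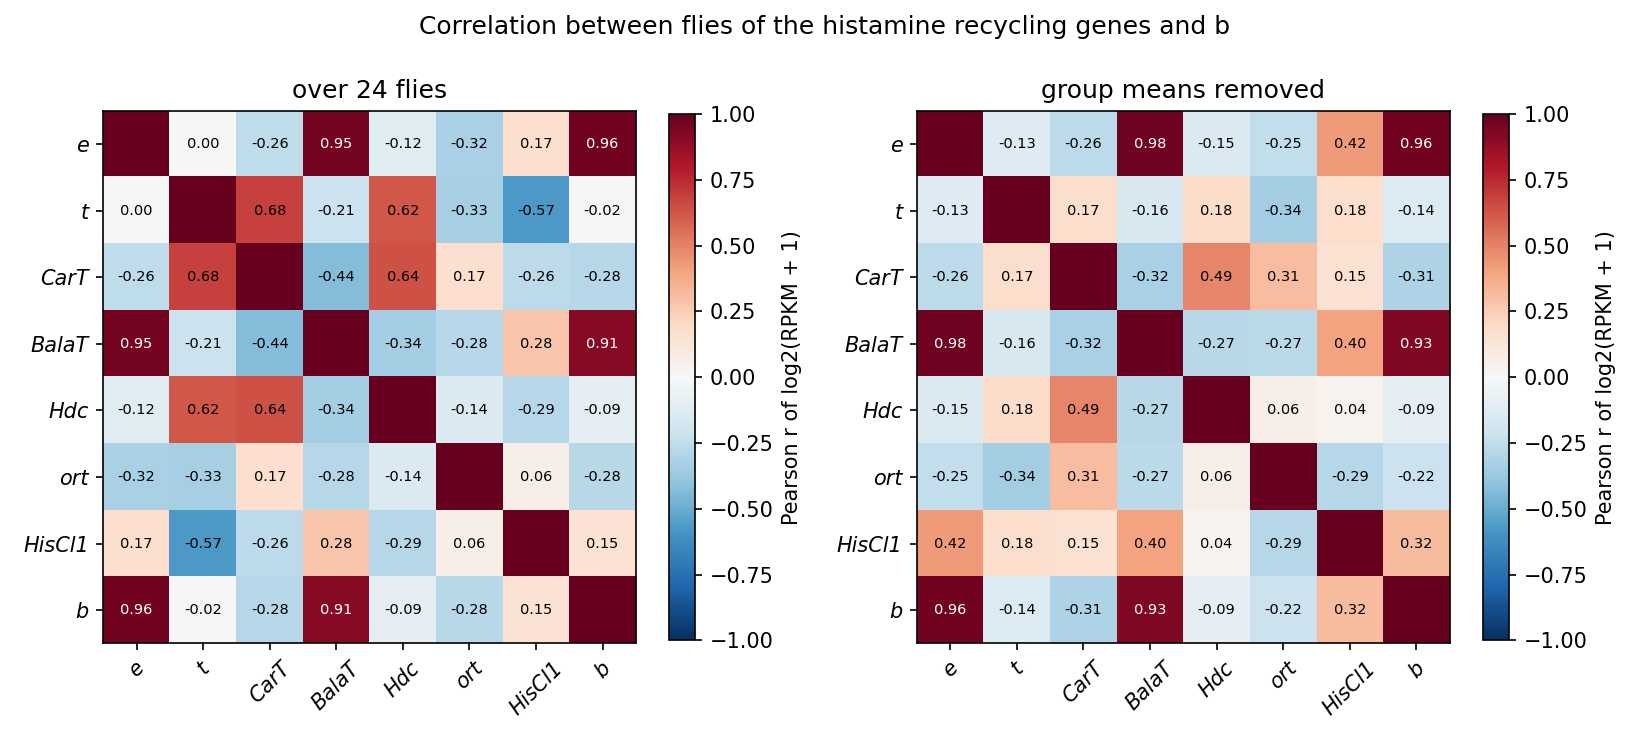
Pearson's r between flies for each pair among the 7 members and b, on the log2(RPKM + 1) scale, over 24 flies on the left and with group means removed on the right. The pairs among e, BalaT and b lie at 0.91 to 0.976 in both panels, while t with CarT is 0.684 on the left and 0.172 on the right.

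Some glial markers were also low in the 3 mock flies with little e. The summed list of 7 glial genes was 1303 RPKM in 3X mock replicate 1, 1236 RPKM in 1X mock replicate 4 and 1346 RPKM in 1X mock replicate 6. In the other mock flies it was 1397 to 1626 RPKM, and it was 1381 to 1673 RPKM in 3X trained and 1343 to 1630 RPKM in 1X trained flies. The value of 1381 RPKM belonged to 3X trained replicate 4, which also had the lowest e of its group, at 31.6 RPKM. The value of 1343 RPKM belonged to 1X trained replicate 1, in which e was 44.9 RPKM. That fly also had the lowest summed fat body and muscle lists, as given above. Gs2, which makes up most of this sum, nrv2 and alrm were each lower in these 3 flies than in any other mock fly. The remaining markers shared that order only in part. In 3X mock replicate 1 repo and Eaat1 were the lowest of their group, at 13.5 and 141 RPKM. They were also the lowest of theirs in 1X mock replicate 4, at 13.6 and 137 RPKM. In 1X mock replicate 6 they had 14.4 and 156 RPKM, in the middle of their group. For moody, 1X mock replicate 4 was the lowest of its group at 17.7 RPKM, with replicate 6 next at 18.3 RPKM. In 3X mock replicate 1, however, moody had 16.8 RPKM, the highest of its group. The level of wrapper was 33.3 RPKM in 1X mock replicate 6, near the highest of its group. All 7 glial markers were found and none was under 1 RPKM in every fly. The part of glial RNA in the spread of e, BalaT and b was not tested.

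Ratios within a head put the opposing steps side by side. The median ratio of e to t in RPKM was 2.37 in 3X trained, 2.39 in 3X mock, 1.4 in 1X trained and 1.12 in 1X mock flies. The ranges of this ratio overlapped between schedules: 3X trained flies had 1.47 to 2.87, 3X mock flies 0.816 to 3.43, 1X trained flies 0.974 to 1.55 and 1X mock flies 0.404 to 1.63. The median ratio of CarT to t was 0.76 in 3X trained, 0.899 in 3X mock, 0.476 in 1X trained and 0.52 in 1X mock flies, and the ranges of 3X flies (0.626 to 0.828 trained, 0.841 to 1.02 mock) lay above those of 1X flies (0.455 to 0.52 trained, 0.397 to 0.596 mock). Both ratios hold t, so their mock values carry the choice of t, and neither was tested. The ratio of the receptors HisCl1 and ort had no such order, with medians of 1.72 in 3X trained, 1.43 in 3X mock, 1.53 in 1X trained and 1.54 in 1X mock flies.

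The other pathway genes listed were b, su(r), pyd3, CRMP, ine, Lovit and Vmat, and all 7 passed the filter on low values. Of these, 1 of 7 passed the test in 3X trained against 1X trained flies, where 11.1% of all genes tested did. In 1X trained against 1X mock flies 1 of 7 passed, where 4.94% of all genes did. In 3X trained against 3X mock flies 0 of 7 passed, where 2.27% of all genes did. In the difference between the training effects 1 of 7 passed, where 0.171% of all genes did. The gene that passed was su(r) each time. It makes dihydropyrimidine dehydrogenase, which starts the breakdown of uracil towards β-alanine, and lies on chromosome X 15834 bases from t. Its levels were 12.4, 16.6 and 22.8 RPKM (lowest, median and highest) in 3X trained flies, 15.2, 15.5 and 17.4 RPKM in 3X mock flies, 24.6, 29.2 and 33.5 RPKM in 1X trained flies, and 9.65, 12.0 and 14.2 RPKM in 1X mock flies.

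All 1X trained flies were above all other flies in su(r), a pattern unlike that of its neighbour t. The log2 change of su(r) was 1.21 in 1X trained over 1X mock flies (95% interval 0.97 to 1.44, limma adjusted p = 2.99e-06), -0.77 in 3X trained over 1X trained flies (95% interval -1.004 to -0.532, limma adjusted p = 0.000117) and 0.05 in 3X trained over 3X mock flies (limma adjusted p = 0.845). The training effect was smaller at 3X than at 1X by 1.16 on the log2 scale (limma adjusted p = 0.00144).

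The genes of the later steps of uracil breakdown did not pass the test in any comparison. CRMP, the dihydropyrimidinase, averaged 16.1 ± 0.659 RPKM in 3X trained, 16.8 ± 0.756 RPKM in 3X mock, 15.8 ± 1.36 RPKM in 1X trained and 15.7 ± 1.37 RPKM in 1X mock flies (n = 6 each, SD). The next enzyme, from pyd3, averaged 9.98 ± 0.341 RPKM in 3X trained, 10.9 ± 0.582 RPKM in 3X mock, 10.4 ± 0.975 RPKM in 1X trained and 10.9 ± 0.695 RPKM in 1X mock flies (n = 6 each, SD).

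Among the transporters, Lovit, which loads histamine into synaptic vesicles of photoreceptors, had more RPKM than any member, with 160 ± 15.2 in 3X trained, 161 ± 14.9 in 3X mock, 178 ± 11.5 in 1X trained and 180 ± 13.3 in 1X mock flies (n = 6 each, SD). Its log2 difference between 3X trained and 1X trained flies was -0.16 (95% interval -0.30 to -0.01, limma adjusted p = 0.156). The transporter gene ine averaged 20.04 ± 1.48 RPKM in 3X trained, 20.5 ± 1.44 RPKM in 3X mock, 17.8 ± 1.55 RPKM in 1X trained and 18.1 ± 2.10 RPKM in 1X mock flies (n = 6 each, SD), with a log2 difference of 0.16 between 3X trained and 1X trained flies (limma adjusted p = 0.13). Vmat, the vesicular monoamine transporter, averaged 33.6 ± 2.06 RPKM in 3X trained, 34.9 ± 2.36 RPKM in 3X mock, 33.9 ± 3.36 RPKM in 1X trained and 34.7 ± 3.34 RPKM in 1X mock flies (n = 6 each, SD), and none of the 3 transporters passed the test in any comparison.

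The genes most like t over the 24 flies, by Pearson's r of log2(RPKM + 1), were CG17162 (0.962), CG17159 (0.961), Chd64 (0.96), CG34134 (0.956) and CG44195 (0.952). With group means removed these values were 0.486, 0.493, 0.259, 0.253 and 0.026, so the likeness lay mostly in the split by schedule. The mock values on which t was picked enter the values over 24 flies. The gene most like e was b, as given above, and the one most like BalaT was its antisense gene. The best matches of the rest were weaker, with Mgat3 for Hdc (0.782), CR32011 for ort (0.747), Rab32 for HisCl1 (0.807) and an unnamed gene for CarT (0.846).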

How the data were processed

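Poly(A) RNA of 24 single male heads was made into non-stranded SMART-Seq v4 libraries. The authors deposited 1 table of RPKM values with a column per fly; the submitters' processing notes name bcl2fastq 2.18, TopHat2 2.0.13, edgeR 3.18.1 and dm6. Another section of the study's methods names an older aligner and assembly. Gene positions come from Ensembl 115 (dm6). Whole reads were recovered from the RPKM values within a tolerance of 0.02 for 16992 genes, with the annotated exonic length for 16284 (95.83%) and a fitted length for 708. They served for depth and for the voom alternative, and they cover counting error only since no molecular identifiers were used.

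Groups came from the sample labels. The test used log2(RPKM + 1) of the 10547 genes that reached 1 RPKM in 6 or more of 24 flies; on this scale, changes of low genes appear smaller than they are. In limma 3.58.1 under R 4.3.3, 1 linear model with 4 group means covered all 24 flies (lmFit, contrasts.fit, eBayes with trend); tests were two-sided, adjusted by Benjamini-Hochberg over all genes and called at 0.05, and the code was tested on simulated data. The labels number the flies 1 to 6 in each group, but same-numbered flies did not deviate together: 24 correlations of their deviations ran from -0.237 to 0.147, and 3 were above 0.1. Flies were therefore not paired.

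The members and all gene lists were chosen with earlier results of these data known. Named genes are the 7 members, 7 other pathway genes, tim and per, and by Pearson's r the 5 genes most like t and the 1 gene most like each other member; genes of the photoreceptor list that passed the test, and ninaE, were named in addition. Sequences were not used here. Alternatives were a pseudocount of 0.1, no filter, median-ratio or quantile scaling, a replicate block, 12-fly fits, sample weights, voom on recovered reads and leaving out each fly. Other scripts used Python 3.11.15, numpy 2.4.6, pandas 2.3.3 and matplotlib 3.10.9.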

Additional observations from a re-analysis of the deposited data

Results flagged for a closer look

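CarT held a single low fly in each mock group. In 3X mock flies replicate 4 had 15.7 RPKM and the gap to its nearest neighbour was 0.791 of the range of the group. In 1X mock flies replicate 2 had 16.8 RPKM and the gap was 0.668 of the range. The limit for 6 values was 0.625, 28 groups of 6 values were examined, and chance flags about 1 in 20, or 1.4 groups here, against 2 found. No cause was tested.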

How the results depend on the processing

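Of 566 values for 25 tested results on single members under all alternatives, 541 kept their direction and side of the threshold, 3 (all of HisCl1, given above) lost the call, 1 (CarT after 1 session, given above) gained it and 21 changed sign, all of them near 0 and uncalled. The log2 change of ort in 3X trained against 1X trained flies was -0.0022 with median-ratio scaling, -0.0090 with quantile scaling, -0.0012 with voom, and -0.0442 to 0.0371 with 1 fly left out. With 1 fly left out, e in that comparison ran from -0.168 to 0.00035 and HisCl1 in 3X trained against 3X mock flies from -0.0344 to 0.0012; in the difference between training effects e ran from -0.41 to 0.0363, CarT from -0.0225 to 0.0688 and BalaT from -0.421 to 0.00011. Members called with 1 fly left out numbered 0 to 1 for 1X trained against 1X mock flies and 1 to 3 for 3X mock against 1X mock flies, where 1 remained without 1X mock replicates 4, 5 or 6 or 3X mock replicate 4. With the replicate block the members called were 3 in 3X trained against 1X trained flies, 0 in each trained against mock comparison and in their difference, and 2 between mock groups, so it changed no call. Counts over all genes moved by more than 1.5 times with no filter (345 against 521 for 1X trained against mock, 109 against 239 for 3X trained against mock, 9 against 18 for the difference), in 12-fly fits (568 against 1172 for 3X trained against 1X trained, 54 against 239), with sample weights (894 against 521, 382 against 239, 120 against 18, and 728 against 458 between mock groups) with the block (8 against 18) and with 1 fly left out (26 to 612, 302 to 503 and 3 to 107, as given above). The share of higher calls in 3X trained against 3X mock flies was 65.7%, against 53.8% with median-ratio and 44.4% with quantile scaling. The cause of these shifts was not tested. The lowest value of any member rested on 316 reads, in ort.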

Other observations

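Beyond b, BalaT and its antisense gene asRNA:CR43469 (0.976, from the same reads as BalaT), the genes whose level within groups followed e most closely were Cyp4g15, with Pearson's r of 0.969 over 24 flies with group means removed, CG10062 (0.95), bnb (0.945), CG2145 (0.944), Dtg (0.936), Hexo2 (0.934) and CG42489 (0.931). These genes were singled out after their values were seen. An r above 0.8 within groups was reached by 28 of 10546 genes with e and by 23 with BalaT, and by 0 with each of the other 5 members. The points share their libraries, so these values are a description.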
